A study of Homo sapiens with 8 samples.

Results

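The interleukin-6 receptor chain and its JAK-STAT3 pathway were examined in LP-1 cells, a human multiple myeloma cell line, after 6 hr with an inhibitor of the CBP/EP300 bromodomains or of the BET bromodomains. The 10 genes are IL6R, IL6ST, JAK1, JAK2, TYK2, STAT3, SOCS1, SOCS3, PIAS3 and IL10RA, matched by symbol among the 63129 gene rows of the deposited table. The genes were chosen by a rule that was written with the measured fold changes of both compounds in view. Their levels and fold changes with SGC-CBP30 and CPI203, and whether they passed the thresholds used below, are therefore a description and not a test. Of the 10, 8 averaged 1 RPKM or more (RPKM counts reads relative to gene length and to library size) over the 8 libraries and were among the 14732 genes tested, and SOCS1 and SOCS3 were not.

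All LP-1 libraries were made after 6 hr, from cells kept in IMDM with fetal bovine serum. One experiment holds 2 libraries with 2.5 μM SGC-CBP30, an inhibitor of the bromodomains of the acetyltransferases CBP and EP300, and 2 with DMSO, called here DMSO-SL after their library names. The other holds 2 libraries with 250 nM CPI203, an inhibitor of the BET family, and 2 with DMSO, called DMSO-CM. The controls of each compound were identified from these naming series. Doses differ between the compounds, and each compound was compared with its own DMSO.

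Interleukin-6 is a growth and survival factor of myeloma cells, supplied in the bone marrow largely by stromal cells. It binds the receptor chain encoded by IL6R, and the pair then engages gp130, encoded by IL6ST, which other cytokines of the family share. The kinases JAK1, JAK2 and TYK2 sit on the receptor tails and phosphorylate gp130 and the transcription factor STAT3. SOCS1 and SOCS3 are feedback inhibitors of the kinases, PIAS3 binds and inhibits STAT3, and IL10RA is the ligand-binding chain of the interleukin-10 receptor, which also acts through JAK1, TYK2 and STAT3.

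The promoters of the 3 receptor genes and of STAT3 are shown because the receptor genes had lower levels with SGC-CBP30 while STAT3, the factor at the end of the chain, did not. Each window runs from 250 bases before to 50 bases after the RefSeq start on GRCh38.p14 and is written 5′ to 3′ on the strand of the gene. Where each window lies relative to the start of the gene as deposited in hg19 was not checked, so a window may be at another start. Capitals mark the matches, on either strand, to a set of 6 searched motifs, which were the STAT element TTCNNNGAA, the core of the interferon-stimulated response element, the ETS-IRF composite element, the GC box GGGCGG, the CCAAT box CCAAT and the TATA box TATAAA.
IL6R promoter (chr1:154405093-154405392, plus strand): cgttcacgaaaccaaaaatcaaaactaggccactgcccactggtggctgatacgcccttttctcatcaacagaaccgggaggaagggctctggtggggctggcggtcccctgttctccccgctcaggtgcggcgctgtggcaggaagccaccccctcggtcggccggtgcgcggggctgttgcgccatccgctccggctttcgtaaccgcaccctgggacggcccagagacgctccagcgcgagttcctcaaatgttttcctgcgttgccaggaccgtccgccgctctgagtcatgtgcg
IL6ST promoter (chr5:55994914-55995213, minus strand): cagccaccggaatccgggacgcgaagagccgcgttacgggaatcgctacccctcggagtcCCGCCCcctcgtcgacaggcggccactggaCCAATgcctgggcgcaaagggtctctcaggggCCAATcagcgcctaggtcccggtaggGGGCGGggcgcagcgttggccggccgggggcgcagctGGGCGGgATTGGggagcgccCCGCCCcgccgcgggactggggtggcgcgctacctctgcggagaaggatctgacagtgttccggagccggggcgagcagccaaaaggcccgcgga
IL10RA promoter (chr11:117989695-117989994, plus strand): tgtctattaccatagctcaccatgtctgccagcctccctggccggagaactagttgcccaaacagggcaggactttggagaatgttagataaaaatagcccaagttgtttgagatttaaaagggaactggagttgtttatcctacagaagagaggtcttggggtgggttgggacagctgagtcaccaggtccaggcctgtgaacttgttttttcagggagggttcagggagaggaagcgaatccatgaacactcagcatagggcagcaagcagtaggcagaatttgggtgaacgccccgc
STAT3 promoter (chr17:42388393-42388692, minus strand): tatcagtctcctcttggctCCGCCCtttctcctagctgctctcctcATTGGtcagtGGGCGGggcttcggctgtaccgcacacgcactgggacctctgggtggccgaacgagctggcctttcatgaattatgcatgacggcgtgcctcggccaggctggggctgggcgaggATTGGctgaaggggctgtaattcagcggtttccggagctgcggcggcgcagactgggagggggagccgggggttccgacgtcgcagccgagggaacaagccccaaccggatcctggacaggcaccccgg

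The IL6ST window held 4 GC boxes and 3 CCAAT boxes and the STAT3 window 2 of each, while the IL6R and IL10RA windows held none of the 6 motifs. The windows of the 10 genes numbered 16, and none held TTCNNNGAA, which 7.66% of the 35116 RefSeq windows of the same length held. GC boxes were in 45.0% and CCAAT boxes in 34.6% of all windows. G and C made up 64.0% of the IL6R window, 72.7% of that of IL6ST, 50.3% of that of IL10RA and 65.3% of that of STAT3, against a median of 58.7%. SOCS1 was the member with an interferon-stimulated response element core, a motif found in 3.57% of windows. These matches are letters in the reference and were not set against any measure of binding. The matches, the absence of TTCNNNGAA and the G and C shares hold for these windows only. A window may not be at the main start of its gene, which was not checked.

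Marker genes were checked before the levels. All 7 plasma cell markers, SDC1, CD38, TNFRSF17, IRF4, PRDM1, XBP1 and SLAMF7, were at 1 RPKM or more in every library, and the B cell, T cell, monocyte and stromal or epithelial markers were each under 0.5 RPKM. The summed plasma cell markers, of which XBP1 and IRF4 had the highest levels in DMSO, were lower with either compound, at 474.3 to 492.6 RPKM with SGC-CBP30 against 721.0 to 741.4 in DMSO-SL, and at 533.2 to 545.0 with CPI203 against 889.1 to 889.2 in DMSO-CM. Single markers went the other way, as SDC1 had a log2 change of 0.14 with SGC-CBP30 (adjusted p = 0.166) and PRDM1 one of 0.36 with CPI203 (adjusted p = 6.74e-05). The 5 T cell markers summed to at most 0.0147 RPKM in DMSO-SL and 0.0545 with SGC-CBP30, but to 0.469 to 0.544 in DMSO-CM and 0.594 to 0.824 with CPI203. CD3D, with 0.375 to 0.499 RPKM in DMSO-CM and with CPI203, was at 0 in all those of the SGC-CBP30 experiment. From the steps between low values the depth was estimated at 25900000 to 34000000 reads per library, except for 49600000 and 46100000 in the SGC-CBP30 libraries.

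In DMSO-SL, IL6ST was the highest of the 10 genes, at a mean of 114.1 RPKM. TYK2 came next at 47.0, PIAS3 at 28.6, IL6R at 27.8, JAK1 at 20.3, STAT3 at 13.5, IL10RA at 10.2 and JAK2 at 2.28 RPKM, and SOCS1 and SOCS3 were under 0.2 RPKM. The replicates of PIAS3 and IL6R overlapped, and all other neighbours in this order were apart. With SGC-CBP30 the order was TYK2, PIAS3, IL6ST, JAK1, STAT3, IL10RA, IL6R and JAK2, so both chains of the interleukin-6 receptor stood lower in it. With CPI203 it was IL6ST, TYK2, PIAS3, JAK1, STAT3, IL10RA, IL6R and JAK2, where the replicates of TYK2 and PIAS3 overlapped.

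**Figure D1:**
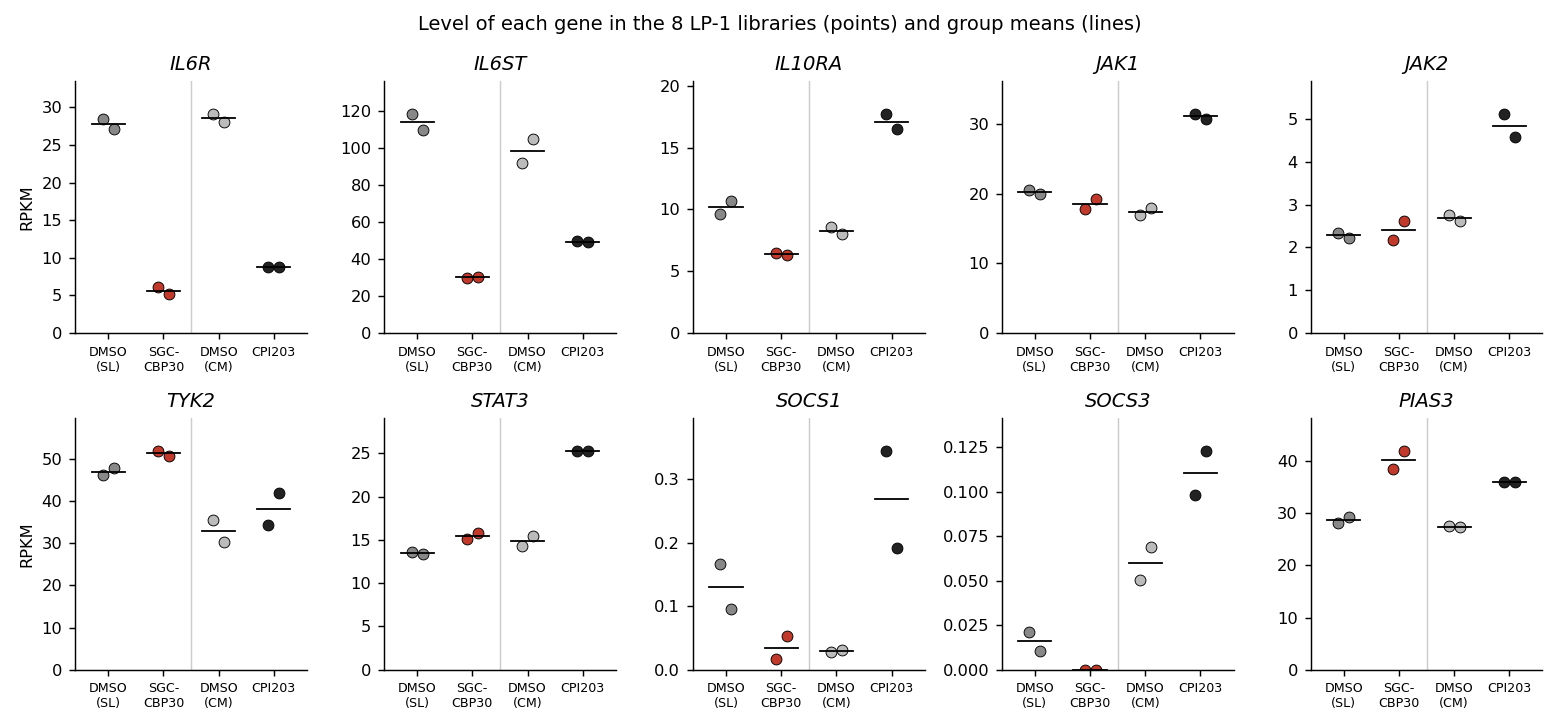
Level of each of the 10 genes in RPKM (linear vertical axis from 0, its range differing between panels) in the 8 LP-1 libraries. Points are single libraries, short horizontal lines are means of 2 libraries, and the grey vertical line separates the SGC-CBP30 experiment from the CPI203 experiment. IL6R and IL6ST lie below both DMSO pairs with either compound, and IL10RA lies below its DMSO with SGC-CBP30 and above it with CPI203.

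IL6R (ENSG00000160712) is listed on chromosome 1 from 154377668 to 154441926 in hg19. It was at 28.5 and 27.2 RPKM in DMSO-SL and at 6.09 and 5.19 RPKM with SGC-CBP30. Both SGC-CBP30 libraries were far below their controls, with a ratio of means of 0.203. In the other experiment IL6R was at 29.1 and 28.1 RPKM in DMSO-CM and at 8.74 and 8.76 RPKM with CPI203, a ratio of 0.306. No library with a compound overlapped a DMSO library. On the log2(RPKM + 0.1) scale, which slightly understates changes of low genes, the fitted changes were -2.29 (SE 0.08) with SGC-CBP30 and -1.70 (SE 0.08) with CPI203, and 10 of the 14732 genes had a larger decrease than IL6R with SGC-CBP30, against 246 with CPI203. Over the alternatives tried, the change with SGC-CBP30 lay between -2.40 and -2.12, and that with CPI203 between -1.73 and -1.60.

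IL6ST (ENSG00000134352), the gp130 chain that also serves interleukin-11, LIF and oncostatin M, is listed on chromosome 5 from 55230922 to 55290821 in hg19. Its levels were 118.3 and 109.8 RPKM in DMSO-SL and 29.8 and 30.5 RPKM with SGC-CBP30. In the CPI203 experiment they were 91.8 and 105.0 RPKM in DMSO-CM and 49.7 and 49.1 RPKM with the compound. The groups did not overlap in either experiment, and the mean with compound was 26.4% of DMSO with SGC-CBP30 and 50.2% with CPI203. The fitted log2 changes were -1.92 (SE 0.06) and -0.99 (SE 0.06), with 24 and 931 genes showing a larger decrease. A clone-named gene within the IL6ST locus, CTD-2031P19.4, had 123.6 to 170.2 RPKM, and how reads were shared between these rows is not known. Its means were 141.5 in DMSO-SL, 124.1 with SGC-CBP30, 167.6 in DMSO-CM and 167.1 RPKM with CPI203, so it did not go down with IL6ST under CPI203.

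Because RPKM is per length, the receptor chains can be set beside each other within a library. The level of IL6ST was 4.16 and 4.04 times that of IL6R in DMSO-SL and 4.90 and 5.86 times with SGC-CBP30. The same ratio was 3.15 and 3.74 in DMSO-CM and 5.686 and 5.6 with CPI203. In both experiments the ratio was thus higher in both libraries with compound than in both controls, as IL6R was lowered by the larger factor.

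IL10RA (ENSG00000110324) is listed on chromosome 11 from 117857062 to 117872196 in hg19. It stood at 9.63 and 10.7 RPKM in DMSO-SL and at 6.51 and 6.29 RPKM with SGC-CBP30. With CPI203 it was at 17.7 and 16.5 RPKM, against 8.574 and 7.999 RPKM in DMSO-CM. The receptor chain of interleukin-10 was therefore lower than its controls with one compound and higher with the other, with no overlap in either experiment. The log2 changes were -0.66 (SE 0.08) with SGC-CBP30 and 1.04 (SE 0.08) with CPI203. The size with SGC-CBP30 lay near the 1.5-fold threshold, which is 0.585 on the log2 scale, and went under it when all 4 DMSO libraries served as controls (-0.51) and without DMSO-SL replicate 2 (-0.58). With CPI203 it stayed between 0.89 and 1.09. Summed, the T cell markers named above were higher with CPI203 than in DMSO-CM. CD3D was at 0.499 and 0.414 RPKM with CPI203 against 0.375 and 0.381 in DMSO-CM. CD3E, CD3G and CD4 overlapped between these groups, and CD8A was at 0 in both. The part of T cell markers in the level of IL10RA was not tested. In bulk samples fewer cells of a type and less RNA per cell cannot be told apart.

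Of the kinases, JAK1 (ENSG00000162434, chromosome 1, 65298911 to 65432187 in hg19) was at 20.5 and 20.0 RPKM in DMSO-SL and 17.9 and 19.2 RPKM with SGC-CBP30, but went from 16.9 and 17.9 RPKM in DMSO-CM to 31.4 and 30.7 RPKM with CPI203. JAK2 (ENSG00000096968, chromosome 9, 4985032 to 5128183) was the lowest kinase, at 2.33 and 2.23 RPKM in DMSO-SL and 2.17 and 2.62 RPKM with SGC-CBP30, which overlapped. With CPI203 it was at 5.12 and 4.58 RPKM against 2.77 and 2.62 RPKM in DMSO-CM. Both genes were thus higher with CPI203 than in DMSO, with ratios of means of 1.785 and 1.801, and their log2 changes were 0.83 (SE 0.06) and 0.82 (SE 0.13). With SGC-CBP30 the log2 changes were -0.13 (SE 0.06) for JAK1 and 0.06 (SE 0.13) for JAK2, and the latter took the other sign after median scaling, after quantile normalization, with all 4 DMSO libraries as controls and without SGC-CBP30 replicate 2. RAVER2 overlaps JAK1, and RP11-39K24.9 overlaps JAK2 at 0.907 to 1.87 RPKM, and how reads were divided between such rows is not known.

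TYK2 (ENSG00000105397, chromosome 19, 10461208 to 10491352 in hg19) was the kinase with the highest level. It was at 46.3 and 47.7 RPKM in DMSO-SL and at 52.0 and 50.6 RPKM with SGC-CBP30. In the CPI203 experiment it was at 35.6 and 30.3 RPKM in DMSO and at 34.4 and 41.8 RPKM with compound, and these overlapped. The log2 changes were 0.13 (SE 0.09) and 0.21 (SE 0.09), and with all 4 DMSO libraries as controls the second was -0.05.

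STAT3 (ENSG00000168610) is listed on chromosome 17 from 40465341 to 40540586 in hg19. It was at 13.6 and 13.4 RPKM in DMSO-SL and 15.1 and 15.8 RPKM with SGC-CBP30, where its receptors were 3.78 times (IL6ST) and 4.93 times (IL6R) lower than in DMSO. With CPI203 STAT3 was at 25.3 RPKM in both libraries, against 14.3 and 15.4 RPKM in DMSO-CM. The log2 changes were 0.19 (SE 0.06) and 0.77 (SE 0.06). The level of the transcription factor was therefore slightly above its controls with SGC-CBP30 and 1.703 times theirs with CPI203.

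Among the inhibitors, PIAS3 (ENSG00000131788, chromosome 1, 145575232 to 145586546 in hg19) was above its controls with both compounds. Its levels were 28.1 and 29.2 RPKM in DMSO-SL, 38.5 and 42.0 RPKM with SGC-CBP30, 27.5 and 27.4 RPKM in DMSO-CM and 36.0 and 35.9 RPKM with CPI203. The log2 changes of 0.49 (SE 0.05) and 0.39 (SE 0.05) were under the 1.5-fold threshold. NUDT17 overlaps PIAS3 and had means of 9.67, 14.6, 9.76 and 4.63 RPKM in the same order, and a second row named PIAS3, on a patch scaffold, was listed at 0 in every library.

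The feedback inhibitors were barely detected. SOCS1 (chromosome 16, 11348261 to 11350036 in hg19) was at 0.166 and 0.0958 RPKM in DMSO-SL, 0.0163 and 0.0523 RPKM with SGC-CBP30, 0.0282 and 0.0307 RPKM in DMSO-CM and 0.345 and 0.192 RPKM with CPI203. SOCS3 (chromosome 17, 76352863 to 76356158) was listed at 0 in both SGC-CBP30 libraries, at 0.0213 and 0.0108 RPKM in their DMSO, at 0.0507 and 0.0689 RPKM in DMSO-CM and at 0.0984 and 0.123 RPKM with CPI203. At these levels a few reads decide a value, and RMI2, which overlaps SOCS1, was at 13.98 to 17.94 RPKM. No fold change is given for SOCS1 or SOCS3.

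**Figure D2:**
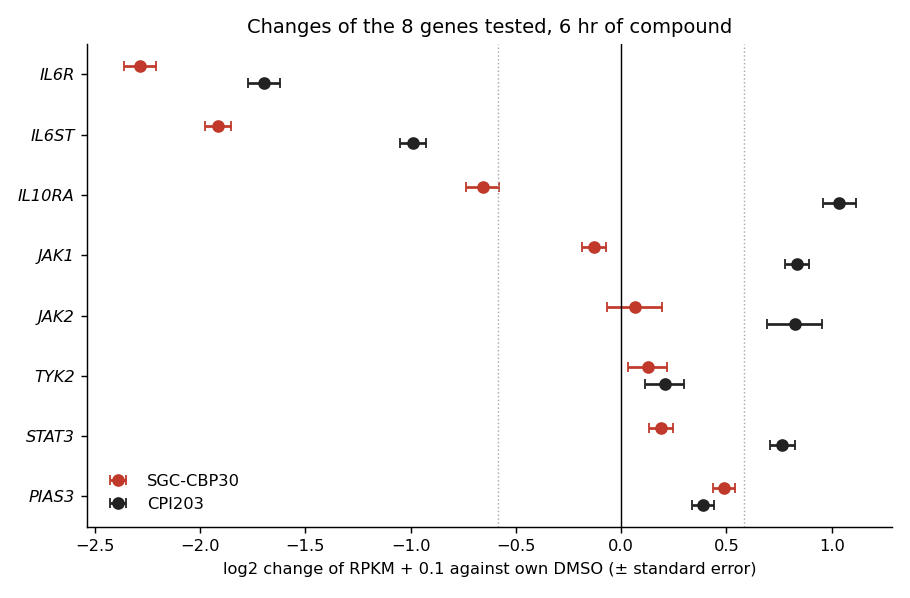
Fitted log2 change of RPKM + 0.1 against the compound's own DMSO (horizontal axis) for the 8 genes tested, with bars of 1 standard error, SGC-CBP30 in red and CPI203 in black. Dotted lines mark a 1.5-fold change. IL6R and IL6ST lie left of the lower line with both compounds, while IL10RA, JAK1, JAK2 and STAT3 lie right of the upper line with CPI203 and not with SGC-CBP30.

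At an adjusted p under 0.05 and at least 1.5-fold, IL6R, IL6ST and IL10RA were called lower with SGC-CBP30, 3 of the 8 genes, where 3.79% of all genes tested were called lower. None of the 8 was called higher, against 3.47% of all genes. With CPI203, IL10RA, JAK1, JAK2 and STAT3 were called higher and IL6R and IL6ST lower, where 13.4% of all genes were called higher and 14.4% lower. These contrasts chose the genes, and nothing is read from the counts. The log2 change with SGC-CBP30 minus that with CPI203 was -0.59 for IL6R, -0.93 for IL6ST, -1.69 for IL10RA, -0.96 for JAK1, -0.76 for JAK2 and -0.58 for STAT3, against -0.08 for TYK2 and 0.10 for PIAS3. Over all genes tested 50.3% had a difference between the compounds with an adjusted p under 0.05. Of all calls with SGC-CBP30, 47.8% were higher with values as deposited and 32.5% after median scaling.

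**Figure D3:**
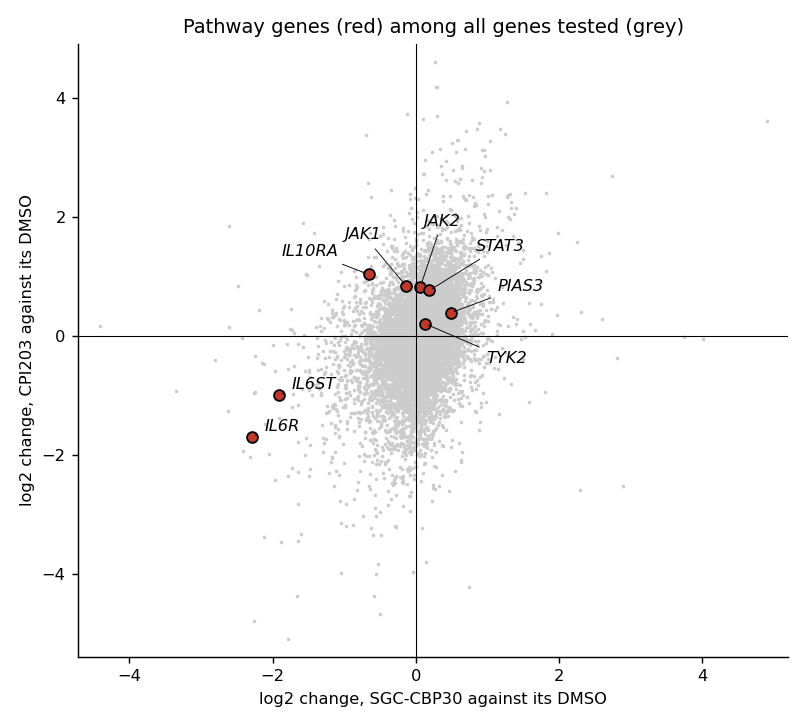
Log2 change with SGC-CBP30 (horizontal axis) and with CPI203 (vertical axis), each against its own DMSO, for the 14732 genes tested (grey points) and the 8 tested genes of the chain (red points with names). IL6R and IL6ST lie at the lower left, and IL10RA is the named gene that lies clearly on the lower side with SGC-CBP30 and the upper side with CPI203.

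The rule did not use the comparison between the DMSO pairs of the experiments, although the same libraries are its controls. None of the 8 genes was called in this comparison, where 3.93% of all genes were called higher in DMSO-CM and 3.91% lower. TYK2 was lower in DMSO-CM, with a log2 difference of -0.52 (SE 0.09, adjusted p = 0.00198), and without DMSO-CM replicate 1 this grew to -0.63, past 1.5-fold. JAK1 was lower by a log2 difference of -0.22 (adjusted p = 0.0121). IL10RA differed by -0.29 (adjusted p = 0.0152) and IL6ST by -0.21 (adjusted p = 0.0197), also lower in DMSO-CM. These 3 smaller differences lost an adjusted p under 0.05 when 1 library was left out, JAK1 and IL6ST without DMSO-CM replicate 1 (adjusted p = 0.0648 and 0.13) and IL10RA without DMSO-SL replicate 2 (adjusted p = 0.112). IL6R differed by 0.04 (adjusted p = 0.705), JAK2 by 0.23 (adjusted p = 0.182), STAT3 by 0.14 (adjusted p = 0.0881) and PIAS3 by -0.06 (adjusted p = 0.364). The experiment, its library names and its T cell marker level cannot be told apart here.

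Patterns over the 8 libraries were described by Pearson's r of log2(RPKM + 0.1). IL6R and IL6ST had r = 0.982 with each other, and IL6R and PIAS3 had r = -0.992. JAK2 and STAT3 had r = 0.963, and JAK1 and STAT3 0.916. The libraries within a group share treatment and preparation, so these values rest largely on 4 groups. The contrasts that chose the members come from the same libraries, so the correlations between members are a description and not a test. Among the 10537 genes of at least 5 RPKM that were compared, FAT1 (0.994), PMVK (0.99) and LIMD1 (0.989) were most like IL6R. Those most like IL6ST were LRRN1 (0.997), PMVK (0.996) and RP1-178F10.3 (0.993). For IL10RA they were HSPB1P1, KIAA0226 and RUNX2, with r from 0.989 to 0.991. For STAT3 they were CKAP2, SLU7 and XPR1, all 0.999, but 781 genes had r of at least 0.95 with STAT3, against 47 with IL6R, 44 with IL6ST and 54 with IL10RA.

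The other genes of the pathway were taken from 6 lists that hold 98 names, of which 97 had a row and 70 were tested. In what follows, a gene of these lists rose or fell where it was called at 1.5-fold or more, and smaller changes are not counted. With SGC-CBP30, 14 of the 70 fell and none rose, where 3.79% of all genes tested were called lower and 3.47% higher, and the median log2 change of the 70 was -0.05, against 0.07 over all genes. With CPI203, 18 rose and 12 fell, where 13.4% of all genes were called higher and 14.4% lower, with a median of 0.06 against -0.015. For 43 of the 70 the compounds differed at an adjusted p under 0.05, as they did for 50.3% of all genes tested. Called in both contrasts were 8 genes in the same direction and 2, STAT4 and FOS, in opposite directions. The same count was not made over all genes tested, so nothing is read from these numbers. The lists were written with earlier results of these data known. When all 4 DMSO libraries served as controls, 6 genes of the lists were called with SGC-CBP30 in place of 14. Over all genes tested, 516 were then called in place of 1070. In the lists the calls of IL4R, IL12RB1, PTPN6, FOS, TIMP1, BCL3, ICAM1 and PIM1 were lost.

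Ligands came first. IL6, OSM and IL27 were listed at 0 in every library, LIF reached at most 0.00948 RPKM, and 12 of the 15 ligand genes were under the minimum for the test. HGF and IGF1, growth factors of myeloma cells that were kept in this list although they signal through other receptors, fell with both compounds. HGF went from 99.9 and 99.2 RPKM in DMSO-SL to 50.8 and 51.0 RPKM with SGC-CBP30, a log2 change of -0.97 (SE 0.03, adjusted p = 2.04e-07). With CPI203 it went from 124.5 and 126.5 RPKM to 45.8 and 44.9 RPKM, a change of -1.47 (SE 0.03, adjusted p = 2.46e-09), which was the larger decrease of the pair (difference 0.50, adjusted p = 2.53e-05). IGF1 fell by 0.59 and by 0.83 on the log2 scale, and its call with SGC-CBP30 was lost without DMSO-SL replicate 1 (-0.52) and without SGC-CBP30 replicate 2 (-0.56).

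Other receptor chains that use JAK kinases went separate ways. Of 12 tested, 2 fell with SGC-CBP30 (3.79% of all genes), and with CPI203 3 rose and 2 fell (13.4% and 14.4% of all genes). IL4R, the interleukin-4 receptor, fell from 3.35 to 1.92 RPKM with SGC-CBP30 (log2 change -0.77, adjusted p = 0.00443), but was at 1.98 RPKM in DMSO-CM. IL12RB1 fell by 0.70 with SGC-CBP30 and by 0.65 with CPI203, calls that were lost without DMSO-SL replicate 2 (-0.58) and without DMSO-CM replicate 2 (-0.56). The DMSO pairs of IL12RB1 themselves differed by -0.70 (adjusted p = 0.00345), with means of 2.47 RPKM in DMSO-CM and 2.46 RPKM with SGC-CBP30. IL10RB, which pairs with IL10RA, rose from 18.3 to 31.9 RPKM with CPI203 (log2 change 0.80, adjusted p = 5.9e-07) and stood at 19.6 in DMSO-SL and 20.6 RPKM with SGC-CBP30, a response that differed between the compounds by -0.72 (adjusted p = 2.52e-05). With CPI203, IFNGR1, an interferon-gamma receptor chain, rose from 10.9 to 21.8 RPKM (adjusted p = 2.57e-06), and IL11RA, another partner of gp130, rose by 0.90 on the log2 scale (adjusted p = 7.34e-05). IL13RA1 fell by 0.75 with CPI203 (adjusted p = 0.00558).

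Of the 6 other JAK and STAT genes tested, 1 fell and none rose with SGC-CBP30 (3.79% and 3.47% of all genes). With CPI203 2 rose and none fell (13.4% and 14.4% of all genes). STAT4 was at 2.12 and 2.10 RPKM in DMSO-SL, 0.645 and 0.815 RPKM with SGC-CBP30, 1.02 and 1.51 RPKM in DMSO-CM and 4.64 and 4.07 RPKM with CPI203. It fell by 1.42 (adjusted p = 0.000648) with SGC-CBP30 and rose by 1.73 (adjusted p = 4.34e-05) with CPI203. The difference was -3.15 (SE 0.29, adjusted p = 1.88e-05). The DMSO pairs themselves differed by -0.72 (adjusted p = 0.0181), so STAT4 was also called lower in DMSO-CM. T cells also express STAT4, and the part of the T cell markers in its level was not tested. STAT2, which carries interferon signals, rose from 39.9 and 41.5 to 93.9 and 93.6 RPKM with CPI203 (log2 change 1.20, adjusted p = 1.8e-08), and the compounds differed by -1.37 (adjusted p = 2.83e-07). JAK3, STAT5B and STAT6 were not called with either compound.

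Of the 16 inhibitors and phosphatases tested, 2 fell with SGC-CBP30, where 3.79% of all genes did, and with CPI203 5 rose and 2 fell, where 13.4% and 14.4% of all genes did. PTPN6, the phosphatase SHP-1 that restrains JAK signalling, was at 4.33 and 5.61 RPKM in DMSO-SL and 2.47 and 1.70 RPKM with SGC-CBP30. It was at 1.32 and 1.72 RPKM in DMSO-CM and 0.725 and 0.434 RPKM with CPI203. Its log2 changes were -1.23 (SE 0.26, adjusted p = 0.00515) and -1.27 (SE 0.26, adjusted p = 0.00177), but the DMSO pairs themselves differed by -1.65 (adjusted p = 0.000984), and with all 4 DMSO libraries as controls the change with SGC-CBP30 was -0.40. CBLB, a ubiquitin ligase, fell by 0.82 with SGC-CBP30 (adjusted p = 0.00292) and responded differently to the compounds (difference -1.32, adjusted p = 0.000842). SOCS6, PIAS1, PTPN1 and ADAM17, the protease that sheds the interleukin-6 receptor, rose with CPI203 by 0.98, 0.68, 0.65 and 0.60 on the log2 scale (adjusted p at most 1.81e-05). The call of ADAM17 was lost without DMSO-CM replicate 2 (0.55) and without CPI203 replicate 1 (0.58).

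The adaptor and MAPK branch of gp130 held 17 genes, all of them tested. None was called with SGC-CBP30, where 3.47% of all genes were called higher and 3.79% lower, and 5 rose with CPI203, where 13.4% of all genes did. PIK3CA, the catalytic subunit of PI3-kinase, rose from 7.60 and 7.24 to 21.1 and 21.1 RPKM (log2 change 1.496, adjusted p = 1.07e-07), and its response differed between the compounds by -0.9975 (adjusted p = 2.87e-05). SOS2 and SOS1, exchange factors that activate RAS, rose by 0.85 and 0.63, and the call of SOS1 was lost without DMSO-CM replicate 1 (0.55). PTPN11, which encodes the phosphatase SHP-2 recruited by gp130, changed by 0.27 (adjusted p = 0.000759) and 0.19 (adjusted p = 0.00189), under 1.5-fold with both compounds.

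Among 16 tested genes known to respond to STAT3, 7 fell and none rose with SGC-CBP30 (3.79% and 3.47% of all genes), at a median of -0.44, and with CPI203 3 rose and 6 fell (13.4% and 14.4% of all genes), also at a median of -0.44. Between the DMSO pairs, with no compound, the same list had a median of -0.40, and 4 of the 16 were called lower in DMSO-CM and none higher (3.91% and 3.93% of all genes). BCL3 fell from 19.2 to 9.69 RPKM with SGC-CBP30 (log2 change -0.99, adjusted p = 0.000503) and from 12.5 to 5.89 RPKM with CPI203 (-1.07, adjusted p = 7.02e-05). The DMSO pairs of BCL3 differed by -0.62 (adjusted p = 0.00508), so it was also called lower in DMSO-CM. With all 4 DMSO libraries as controls its change with SGC-CBP30 was -0.67 (adjusted p = 0.087). CCND2, a G1 cyclin, fell from 104.5 to 53.4 RPKM (adjusted p = 4.11e-06) and from 79.1 to 40.6 RPKM (adjusted p = 5.88e-07). ICAM1, an adhesion molecule, fell by 0.63 with SGC-CBP30 and by 1.76 with CPI203, the response differing by 1.13 (adjusted p = 2.06e-05), and its call with SGC-CBP30 was lost without DMSO-SL replicate 2 (-0.57). The kinase PIM1 fell from 63.9 to 37.2 RPKM with SGC-CBP30 (log2 change -0.78, adjusted p = 2.14e-06) and went from 31.4 to 45.8 RPKM with CPI203, a log2 change of 0.55 that was under 1.5-fold (difference between the compounds -1.33, adjusted p = 4.2e-07), while its DMSO pairs differed by -1.02. MCL1, which protects myeloma cells from apoptosis, was at 157.1 RPKM in DMSO-SL and 155.8 RPKM with SGC-CBP30, but rose from 197.6 to 324.0 RPKM with CPI203 (log2 change 0.71, adjusted p = 5.67e-08).

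FOS and TIMP1 had low levels. FOS was at 2.55 and 1.82 RPKM in DMSO-SL, 0.664 and 0.648 RPKM with SGC-CBP30, 0.339 and 0.316 RPKM in DMSO-CM and 1.69 and 1.34 RPKM with CPI203. It fell by 1.58 with the first compound and rose by 1.91 with the second (difference -3.49, adjusted p = 2.35e-05), but its DMSO pairs differed by -2.40 (adjusted p = 6.04e-05), more than either change. With all 4 DMSO libraries as controls FOS was not called with either compound (-0.38 and 0.71). TIMP1 fell by 1.05 with SGC-CBP30 (adjusted p = 0.00465), from a mean of 3.78 to 1.78 RPKM. Its DMSO pairs differed by -0.655 (adjusted p = 0.0369), with 1.78 and 3.12 RPKM in DMSO-CM. JUNB, an early response gene, lay between 6.77 and 10.2 RPKM in all libraries and was not called. In the DMSO pairs 9 of the 70 pathway genes were called lower in DMSO-CM and 1 higher, against 3.91% and 3.93% of all genes tested. This comparison shares the DMSO-SL libraries with that of SGC-CBP30.

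**Figure D4:**
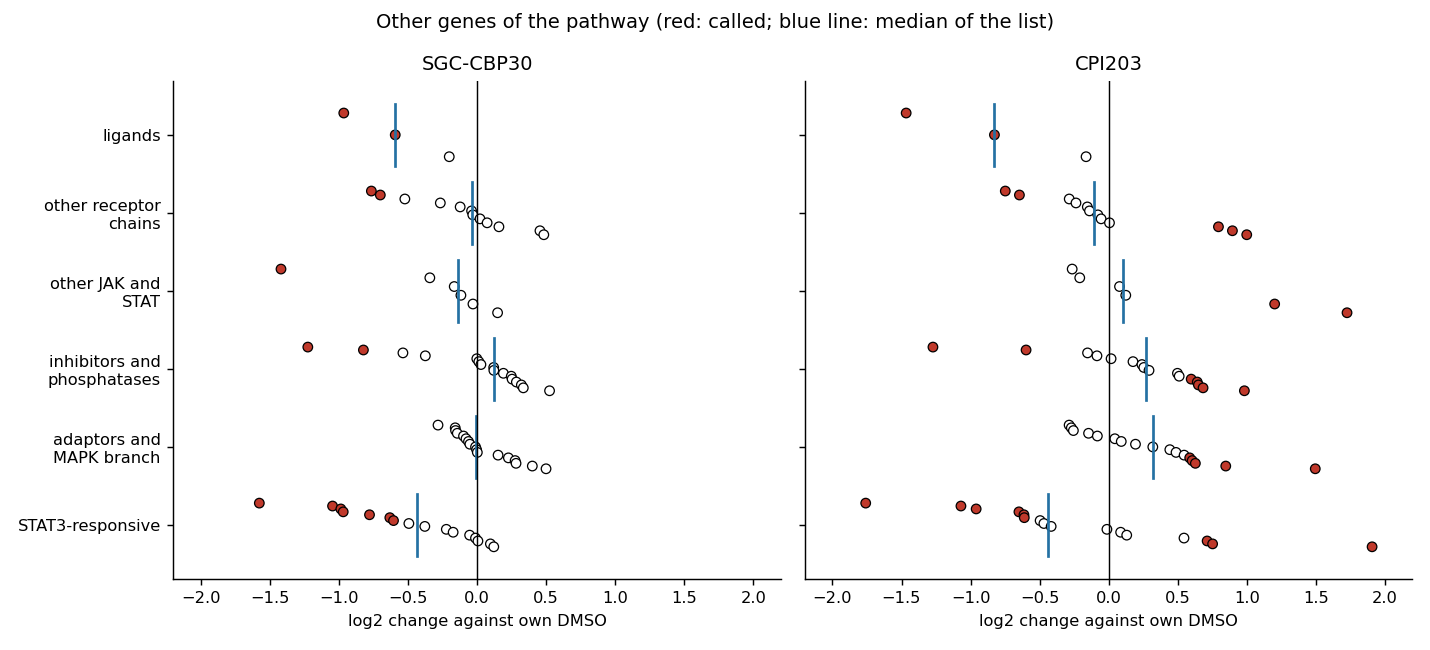
Log2 change against own DMSO (horizontal axes) of the tested genes of the 6 pathway lists (rows) with SGC-CBP30 (left) and CPI203 (right). Each point is a gene, red where called, vertical position within a row only separates points, and blue lines are list medians. Called genes lie to the left of 0 only with SGC-CBP30, and on both sides with CPI203.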

How the data were processed

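LP-1 RNA was sent to a sequencing company, and the table that the authors deposited gives RPKM for every gene in every library. The submitters' processing notes name TopHat 1.4.1, Cufflinks and hg19, while the annotation release is not given in the sources used here. Some positive values are vanishingly small, as when reads are divided among overlapping genes by estimation, so such rows are uncertain. The table holds 24 columns of other libraries, which were not used. A figure legend of the study calls the samples biological replicates and describes their DMSO controls as paired. It does not say which DMSO library goes with which treated library. The main fit used no pairing, and a block by replicate number was run as an alternative.

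Of 63129 rows, 27 lacked a value and were dropped, 33312 exceeded 0 somewhere, and 14732 averaged 1 RPKM or more and were tested. limma 3.58.1 in R 4.3.3 was fitted to log2(RPKM + 0.1) with 4 group means over 8 libraries and an intensity trend (4 residual and 5.48 prior degrees of freedom), and was tested on simulated data. P-values were adjusted over all 14732 genes (Benjamini-Hochberg). Calls required an adjusted p under 0.05 and 1.5-fold, or the adjusted p alone for the difference between compounds. With 2 libraries against 2, an exact two-sided permutation test cannot go below 0.333, so every p rests on limma's shared spread. Replicate log2 differences had an SD of 0.0909 to 0.115 above 10 RPKM.

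The members and lists were chosen with earlier results of these data known. Named pathway genes were, per list and compound, at most the 4 largest called changes with both treated libraries on one side of both DMSO libraries, plus IL6, OSM, LIF, PTPN6, PTPN11, ADAM17, BCL3, PIM1, MCL1 and JUNB, and per member the 3 genes of highest correlation. Not every gene so named is reported here. Depth was estimated from steps of whole reads among low values, 67.8% to 81.5% of which lay within 0.1 of a whole read. Promoter windows came from RefSeq (GRCh38.p14) and gene positions from the deposited hg19 annotation. The alternatives changed the pseudocount (to 1), the filter (to 5 RPKM, or none), the scaling (median or quantile), the controls (all 4 DMSO libraries), the block (replicate number), the trend, the fold minimum and the joint fit, and left out each library in turn. Tables and figures were made in Python 3.11.15 (pandas 2.3.3; numpy 2.4.6; matplotlib 3.10.9).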

Additional observations from a re-analysis of the deposited data

How the results depend on the processing

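Precision is limited by 2 libraries per group, and depth limits genes near 1 RPKM. Of the genes tested, 1070 were called with SGC-CBP30, 4095 with CPI203, 7416 for the difference between compounds and 1155 between the DMSO pairs, with 14 and 30 pathway genes for the compounds. With SGC-CBP30 the count was 667 at a pseudocount of 1, 505 among genes of at least 5 RPKM, 516 with all 4 DMSO libraries as controls and 5945 with no minimum fold, and the pathway genes numbered 7, 6 and 39 under the last 3 of these. With CPI203 there were 2590 calls at 5 RPKM or more and 9459 with no minimum fold, then with 53 pathway genes, and the DMSO pairs gave 518 and 6150. The share of higher calls with SGC-CBP30 went from 47.8% to 34.8% at a pseudocount of 1, 36.2% at 5 RPKM, 32.5% after median scaling and 32.4% after quantile normalization. The causes were not tested. At a pseudocount of 1 the calls of IGF1, IL4R, IL12RB1 and CBLB with SGC-CBP30 and of IL12RB1, IL13RA1 and ADAM17 with CPI203 went under 1.5-fold. With no filter PTPN6 and TIMP1 were no longer called with SGC-CBP30 (adjusted p = 0.0623 and 0.0584), and with CPI203 IL12RB1 was lost after quantile normalization and IL13RA1 with all 4 DMSO libraries. Other counts stayed within 1.5 times under the alternatives run. With all 4 DMSO libraries as controls, or separate fits, no difference between compounds or DMSO pairs could be given.

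Samples share replicate numbers within each experiment. With the replicate block 1057 and 4120 genes were called. No call of a member was lost, but the contrasts with the compounds chose the members, so nothing is read from that. Deviations of equal numbers correlated at -0.172 in the SGC-CBP30 experiment and -0.0395 in the CPI203 experiment over 8298 genes, and a crossed pairing of the former, chosen after seeing the data, gave 1076 calls.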

Other observations

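The expressed genes beside each member were listed, and those named here were picked after their values were seen. ATP8B2, which encodes a flippase subunit and lies 53.9 kb from IL6R on one side, fell with SGC-CBP30 (log2 change -0.80, adjusted p = 2.06e-06 from limma) and, from 88.1 to 46.3 RPKM, with CPI203 (log2 change -0.93, adjusted p = 1.17e-07). UBE2Q1, 79.1 kb away on the other side, was at 130.3 and 129.0 RPKM in the first experiment and 120.4 and 114.4 RPKM in the second, and was not called. Beside JAK1, AK4 rose with SGC-CBP30 (log2 change 0.88, adjusted p = 0.000375) and fell with CPI203 (-1.59, adjusted p = 1.55e-06), while DNAJC6, the next gene, rose with both (0.99 and 1.60). Neighbours of IL6ST that were tested, SLC38A9, HNRNPH1P3, RPL17P22 and AC022431.1, were not called with either compound.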
